A study of Arabidopsis thaliana with 2 samples.

Results

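The transcripts of chlorophyll synthesis and breakdown were followed in leaves of Arabidopsis thaliana as a list of 39 locus identifiers, among 33557 loci with a value. The list holds 26 genes of synthesis, from HEMA1 to CHLP with the regulator FLU, and 13 genes of breakdown, from SGR1 to CYP89A9. All 39 were in the expression table. All 39 reached 5 FPKM in at least 1 library, so none was lost to a filter on low values. FPKM scale fragments to transcript length and to the number of fragments mapped, so levels of different genes can be set side by side.

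The study compared 1 library from wild type plants of ecotype Columbia with 1 library from homozygous plants of the line Atclb1-1, in which a T-DNA lies in the lipid-binding protein gene AtCLB (AT3G61050). The labels describe the line as a loss of function mutant. Leaves came from plants aged 2 weeks that were grown under a 16-h photoperiod at 23 °C. The mutant is 1 allele, and neither the number of plants per library nor the time of day of harvest is stated in the sources. AtCLB itself stood at 39.2 FPKM in wild type, with 13.5 FPKM in the other library, which was 34.5% of the wild type level. Because transcript of the targeted locus remained, the second library is called the library labelled Atclb1-1.

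No difference below has a replicate check, and no test between genotypes was possible. A difference is given as log2((mutant FPKM + 1)/(wild type FPKM + 1)), and a gene is counted as higher or lower at 2-fold or more on that scale. Folds of single genes are plain ratios of FPKM, and where a pair of values is given the first is wild type. The library labelled Atclb1-1 was estimated to be 1.21 times as deep as wild type, from the steps of low values. The leaf mesophyll markers RBCS1A and CA1 summed to 22682 FPKM in wild type, 9846 FPKM in the library labelled Atclb1-1, and both were at least 2-fold lower. Guard cell markers summed to 175 and 71.9 FPKM, with MYB60 and AT1G22690 lower and KAT1 higher (12.8 and 32.4 FPKM). AT1G22690 alone made up 144 and 31.8 FPKM of that sum. Epidermis markers summed to 57.5 and 32.0 FPKM, with ATML1 lower and KCS10 under 2-fold. Xylem markers summed to 26.2 and 11.7 FPKM, with XCP2 lower and IRX3 under 2-fold, and the phloem marker SUC2 was at 252 and 206 FPKM. Of 3 root markers CASP1 and COBL9 were listed at 0 in both libraries, and PYK10 was listed at 0 in wild type and at 1.31 FPKM in the other library. Of 2 seed markers OLEO1 was listed at 0 in both and CRA1 was at 0.213 FPKM in wild type and listed at 0 in the other, and the 3 flower markers summed to 1.45 and 0.867 FPKM. In whole leaves, fewer cells of a type and less RNA per cell cannot be told apart.

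Chlorophyll is built in the plastid from glutamate, through 5-aminolevulinic acid and a series of porphyrin intermediates to protoporphyrin IX. At that point ferrochelatase leads to heme, and magnesium chelatase leads to protochlorophyllide, which is reduced in the light and joined to a phytol tail. In ageing leaves chlorophyll b is turned back into chlorophyll a, the magnesium and the tail are removed, and the ring is opened to give colourless products that move to the vacuole.

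In the library labelled Atclb1-1 more synthesis transcripts were lower than higher, whereas breakdown transcripts were split, with SGR1, SGR2, CLH1 and CYP89A9 higher and NYC1 and HCAR lower. Of the 26 synthesis genes 12 were at least 2-fold lower and 3 at least 2-fold higher. Of the 13 breakdown genes 4 were higher and 2 lower. Of the 18171 loci that reached 1 FPKM in either library, 17.2% were higher and 10.8% lower by the same rule. For the 39 genes together these shares were 17.9% and 35.9%. Among the 26 synthesis genes 46.2% were lower and 11.5% higher, so the share of lower genes was above the background. Among the 13 breakdown genes 30.8% were higher and 15.4% lower. Both counts are small, and CLH1 left the higher genes when the median ratio was set to 0, so nothing is read from them against the background.

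The median difference was -0.99 for synthesis and 0.35 for breakdown, against 0.21 for all loci kept. The median log2 ratio of well-expressed loci was 0.21, and setting it to 0 gave medians of -1.19 for synthesis and 0.15 for breakdown. Under that scaling higher loci made up 50.7% of all loci past 2-fold, compared with 61.5% without it. The summed level of the 26 synthesis genes was 6924 FPKM in wild type, 4925 FPKM in the library labelled Atclb1-1. For the 13 breakdown genes the sums were 1105 and 1334 FPKM. The mesophyll markers were lower together with the synthesis genes, and the part of cell makeup in these differences was not tested.

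**Figure D1:**
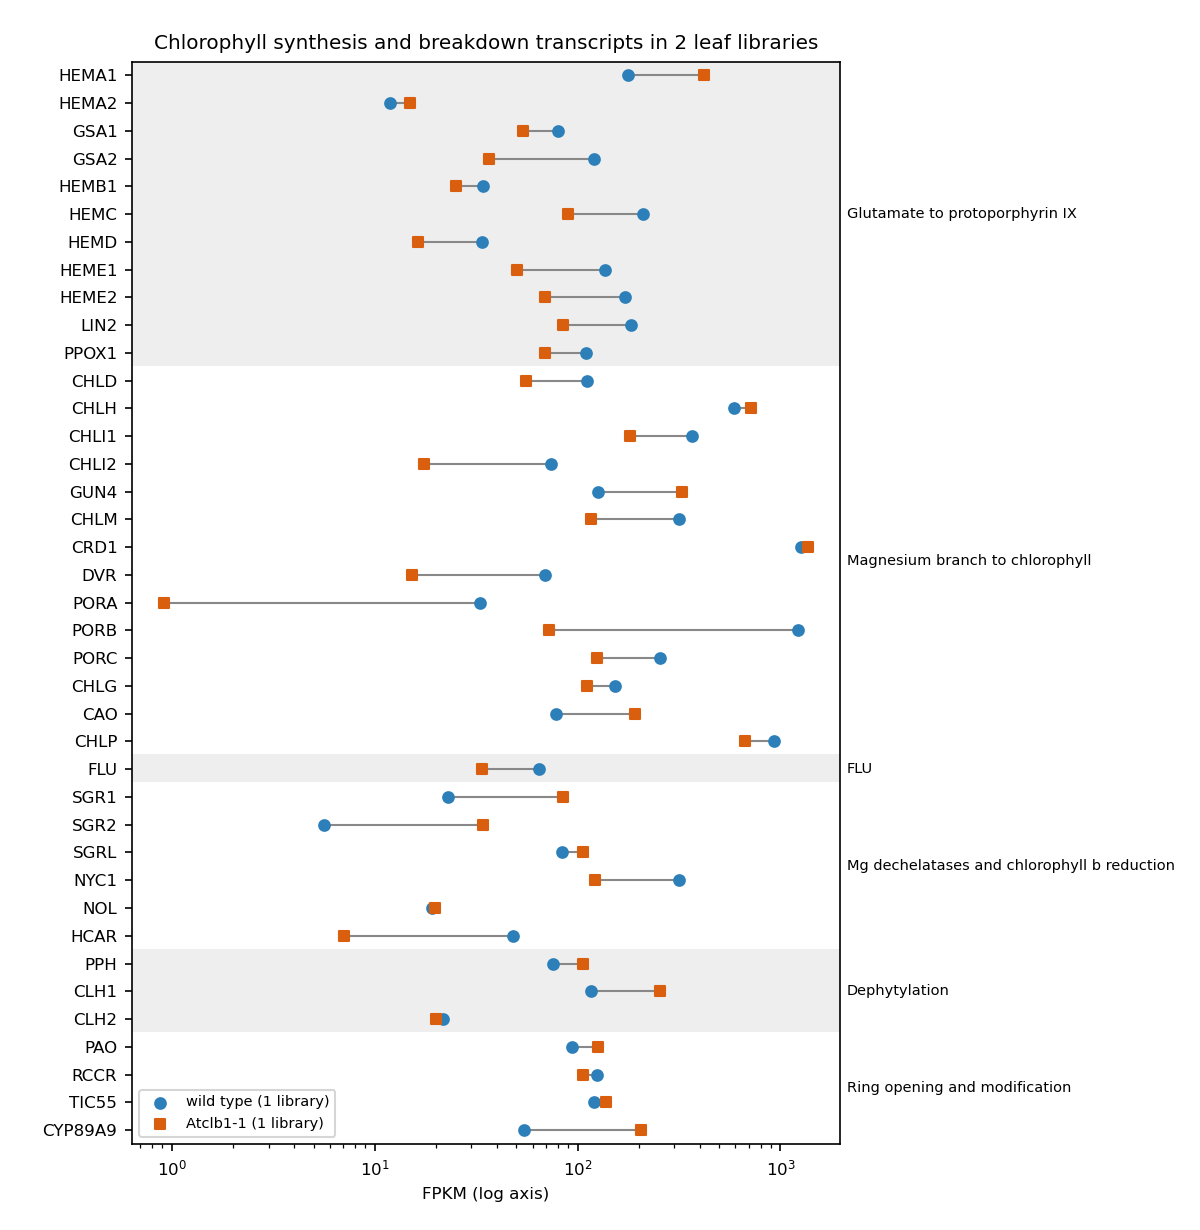
Level of each of the 39 genes in FPKM on a log axis, with 1 point per library, wild type as circles and the library labelled Atclb1-1 as squares, grouped by pathway step. PORA and PORB show the widest gaps, from 32.9 to 0.918 FPKM and from 1226 to 72.3 FPKM, while CRD1 has the highest level in both libraries.

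PORA and PORB were the members farthest apart, whereas PORC, of the same protochlorophyllide oxidoreductase family, lay near the 2-fold threshold. These enzymes carry out the light-dependent step that turns protochlorophyllide into chlorophyllide. PORB (AT4G27440; TAIR10.1 chromosome 4, 13725546 to 13727440, plus strand) stood at 1226 FPKM in wild type, 72.3 FPKM in the library labelled Atclb1-1, 17.0-fold lower. It was the second most abundant of the 39 transcripts in wild type and ranked 22 in the other library. PORA (AT5G54190; chromosome 5, 21990864 to 21992814, minus strand), best known from dark-grown seedlings, was at 32.9 and 0.918 FPKM. Its difference was -4.14, with a range of -5.02 to -2.68 over pseudocounts of 0.1 to 5. The low value corresponds to roughly 25 to 27 fragments, estimated from the value of 1 fragment at this depth and a transcript of 1610 nt. Only 59 of the 18171 loci had a difference as low as that of PORA, and 62 as low as that of PORB.

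PORC (AT1G03630), the form found in green leaves in the light, was at 255 and 125 FPKM, a difference of -1.03. It was lower by 0.92, short of 2-fold, when both libraries were scaled to the same nuclear total. Within the family the order of levels differed between the libraries. PORB supplied 81.0% of the summed POR level in wild type but 36.5% in the library labelled Atclb1-1, while the share of PORC was 16.8% and 63.0%. The family sum was 1514 and 198 FPKM. The coding sequences of PORA and PORB are 83.3% identical, with a longest shared run of 44 nt, and how reads of shared stretches were assigned is not stated. PORB also overlaps AT4G27450 on the opposite strand by 71 nt, and that gene was at 4.25 and 44.3 FPKM, the other way from PORB.

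The sequences before PORA and PORB are shown because both genes lie at the low end and both hold the evening element, a motif bound by clock proteins. Each is the 250 bases before the annotated gene start in TAIR10.1, read 5′ to 3′ on the strand of the gene from the RefSeq annotation and genome. Capitals mark matches to the 4 motifs that were searched on both strands, namely the evening element AAAATATCT, the G-box CACGTG, the CCA1-binding site AAAAATCT and the letters CCAATC bound by GLK factors. PORA is chr5:21992815-21993064 on the minus strand and PORB is chr4:13725296-13725545 on the plus strand.
PORA: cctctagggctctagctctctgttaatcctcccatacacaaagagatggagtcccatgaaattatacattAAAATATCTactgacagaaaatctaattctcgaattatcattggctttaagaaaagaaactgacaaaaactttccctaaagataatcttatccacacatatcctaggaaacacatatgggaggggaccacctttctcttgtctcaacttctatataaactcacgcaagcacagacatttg
PORB: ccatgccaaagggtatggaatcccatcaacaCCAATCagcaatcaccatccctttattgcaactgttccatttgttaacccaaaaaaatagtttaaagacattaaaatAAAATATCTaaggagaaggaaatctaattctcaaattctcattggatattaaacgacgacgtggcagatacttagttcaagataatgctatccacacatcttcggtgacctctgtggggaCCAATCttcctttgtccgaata
The evening element ended 172 bases before the start of PORA and 134 bases before that of PORB. PORB also held CCAATC in 2 places.

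The first steps, which make 5-aminolevulinic acid, were uneven. HEMA1 (AT1G58290), the glutamyl-tRNA reductase gene of green tissue and the main point of control, stood at 178 FPKM in wild type, 418 FPKM in the library labelled Atclb1-1, 2.35-fold higher. Its difference of 1.23 became 0.80 once a trend with GC content and transcript length was removed. HEMA2 (AT1G09940), the other reductase gene, was at 11.9 and 15.0 FPKM, and its small difference of 0.31 turned to -0.04 under the same correction. HEMA1 thus supplied 93.7% and 96.5% of the summed HEMA level. The 2 genes for glutamate-1-semialdehyde aminotransferase, the next enzyme, were both below wild type. GSA2 (AT3G48730) was 3.31-fold lower at 121 and 36.5 FPKM, and GSA1 (AT5G63570) was at 79.9 and 53.8 FPKM. GSA2 was the more abundant form in wild type with 60.2% of the sum, and GSA1 in the library labelled Atclb1-1 with 59.6%. The coding sequences of GSA1 and GSA2 are 83.5% identical, those of HEMA1 and HEMA2 83.0%, and those of CHLI1 and CHLI2 82.0%. Shares and ratios within these pairs carry the limit on read assignment given for PORA and PORB. FLU (AT3G14110), which holds back glutamyl-tRNA reductase in the dark, was at 64.3 and 33.9 FPKM, a difference of -0.90 that was -1.10 with the median ratio set to 0. The level of HEMA1 was 2.76 times that of FLU in wild type and 12.3 times in the library labelled Atclb1-1.

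All 7 genes from 5-aminolevulinic acid to protoporphyrin IX were below wild type, and 4 of them passed 2-fold. Of all loci, 10.8% were lower by the same rule. HEMC (AT5G08280), for porphobilinogen deaminase, stood at 211 and 90.0 FPKM. The uroporphyrinogen decarboxylase genes HEME1 (AT3G14930) and HEME2 (AT2G40490) were both lower, at 136 and 50.4 FPKM for the first and 171 and 69.4 FPKM for the second. LIN2 (AT1G03475), the coproporphyrinogen oxidase gene, was at 184 and 85.2 FPKM. These 4 genes lay in a narrow band, with differences from -1.42 to -1.10. The remaining 3 were HEMB1 (AT1G69740) at 34.2 and 25.1 FPKM, HEMD (AT2G26540) at 33.8 and 16.4 FPKM, and PPOX1 (AT4G01690) at 109 and 69.4 FPKM. HEMD, the uroporphyrinogen III synthase gene, lay just outside the threshold at -0.998, and it passed under 3 of the alternatives.

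The subunits of magnesium chelatase, the enzyme at the entry to the chlorophyll branch, differed in direction. CHLH (AT5G13630), the large porphyrin-binding subunit, was at 593 and 713 FPKM. The ATPase subunits CHLI1 (AT4G18480) and CHLI2 (AT5G45930) were both lower, at 365 and 181 FPKM for the first and 74.3 and 17.5 FPKM for the second. CHLD (AT1G08520), the third subunit, was at 111 and 55.6 FPKM, a ratio of 2.00 that was short of the threshold at -0.99. It passed with the trend removed (-1.37), with the median ratio set to 0 (-1.19) and with a pseudocount of 0.1. CHLH was 1.63 times as abundant as CHLI1 in wild type but 3.93 times in the library labelled Atclb1-1. CHLI1 lay on the edge at -1.003 and missed 2-fold with a pseudocount of 5 (-0.99) or with the same nuclear total (-0.90). The difference of CHLH was 0.26, but -0.39 after the length and GC trend was removed. Its transcript, 4753 nt, is the longest of the 39. GUN4 (AT3G59400), a porphyrin-binding protein that stimulates the chelatase, was 2.61-fold higher at 126 and 329 FPKM. It overlaps AT3G59410 on the opposite strand by 946 nt, a gene at 5.25 and 9.80 FPKM.

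Further along the branch, CHLM (AT4G25080), the magnesium protoporphyrin methyltransferase gene, was at 316 and 117 FPKM. CRD1 (AT3G56940), a subunit of the cyclase that closes the fifth ring, was the most abundant member in both libraries at 1263 and 1364 FPKM. Its difference of 0.11 changed sign to -0.09 with the median ratio set to 0 and to -0.03 with the trend removed. DVR (AT5G18660), which reduces a vinyl group of the ring, was 4.49-fold lower at 69.0 and 15.4 FPKM, the third lowest difference among synthesis genes (-2.10). CAO (AT1G44446), the oxygenase that makes chlorophyll b, was 2.46-fold higher at 78.4 and 193 FPKM. CHLG (AT3G51820), chlorophyll synthase, was at 153 and 111 FPKM, and CHLP (AT1G74470), which reduces the phytol precursor, at 926 and 668 FPKM.

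**Figure D2:**
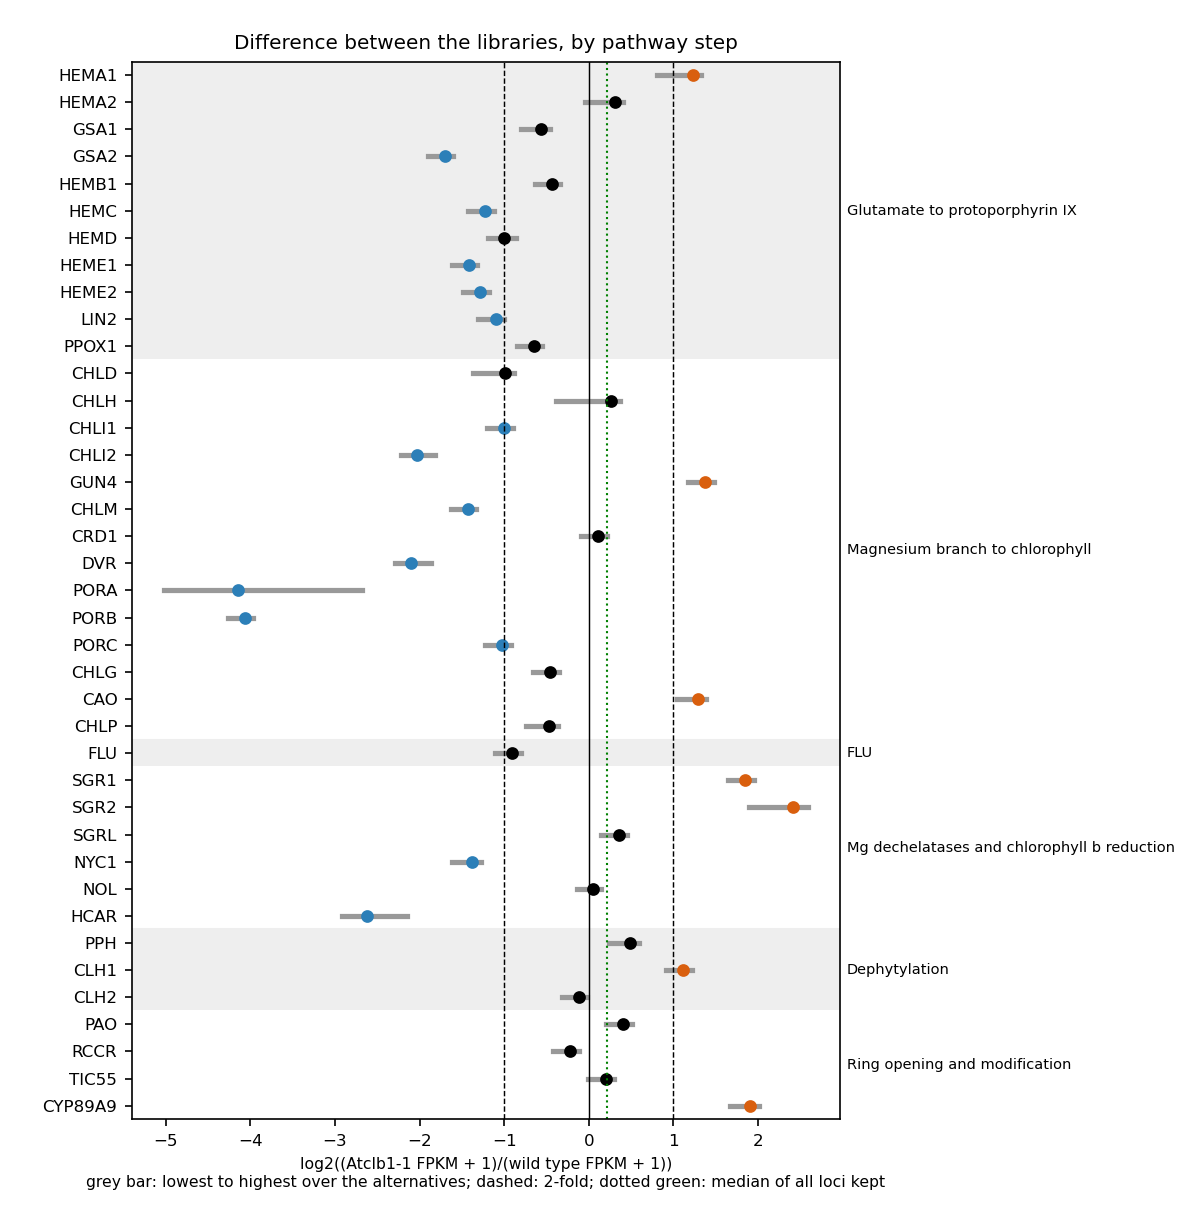
Difference of each gene on the log2(FPKM + 1) scale, as points, in pathway order; blue and orange points are at least 2-fold lower or higher, and grey bars run from the lowest to the highest value over the alternative settings. Most synthesis genes lie between -2.10 and -0.43, with PORA and PORB far to the left and HEMA1, GUN4 and CAO to the right of 1.

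The synthesis genes above 0 were few. HEMA1, CHLH, GUN4, CRD1 and CAO were 5 of the 6 synthesis genes with a difference above 0, and HEMA2 was the sixth. With the trend removed CHLH, CRD1 and HEMA2 were below 0, and CRD1 was also below 0 with the median ratio set to 0. The 0.11 of CRD1 was below the median of all loci. HEMA1, GUN4 and CAO were above 0 under each alternative.

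Clock genes differed widely between the libraries. The clock genes CCA1 and LHY, which peak around dawn, stood at 7.39 and 162 FPKM and at 3.41 and 74.0 FPKM. The evening genes TOC1 (80.3 and 12.1 FPKM) and ELF4 (343 and 4.95 FPKM) were lower, as was GRP7, an RNA-binding protein gene under clock control (3794 and 30.3 FPKM). All 5 clock markers listed were past 2-fold, and their part in the differences of chlorophyll genes was not tested. Time of harvest and genotype cannot be told apart with 1 library each.

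Of the 13 breakdown genes, SGR2 had the highest difference (2.41), followed by CYP89A9 (1.91) and SGR1 (1.85). SGR1 (AT4G22920; chromosome 4, 12016420 to 12018643, minus strand) and SGR2 (AT4G11910; chromosome 4, 7156150 to 7158047, plus strand) belong to the STAY-GREEN family of magnesium dechelatases. SGR1, the main dechelatase of ageing leaves, stood at 22.9 FPKM in wild type, 85.1 FPKM in the library labelled Atclb1-1, 3.71-fold higher. SGR2 was at 5.64 and 34.4 FPKM, 6.10-fold higher, with a range of 1.89 to 2.59 in its difference over the alternatives. It was the least abundant of the 39 genes in wild type. SGRL (AT1G44000), the third family member, which is active in leaves that are not ageing, was at 83.4 and 107 FPKM. SGRL supplied 74.5% of the family sum in wild type but 47.2% in the library labelled Atclb1-1, and SGR1 20.5% and 37.6%. The coding sequences of SGR1 and SGR2 are 79.6% identical with a longest shared run of 28 nt.

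Genes of the chlorophyll b to a conversion were lower or near wild type. NYC1 (AT4G13250), a chlorophyll b reductase gene, was 2.62-fold lower at 318 and 122 FPKM. NOL (AT5G04900), its partner, was at 19.1 and 19.8 FPKM, and its difference of 0.05 was -0.14 with the median ratio set to 0 and -0.11 with the trend removed. HCAR (AT1G04620; chromosome 1, 1282163 to 1286619, minus strand), which completes the conversion by reducing hydroxymethyl chlorophyll a, was 6.88-fold lower at 48.3 and 7.03 FPKM. Of all loci, 1.22% had a difference as low as the -2.62 of HCAR. CAO, which makes chlorophyll b, and NYC1, which starts its removal, exchanged order, with a ratio of CAO to NYC1 of 0.247 in wild type but 1.59 in the library labelled Atclb1-1.

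Genes that remove the phytol tail differed by form. CLH1 (AT1G19670), a chlorophyllase gene known to respond to jasmonate, was at 117 and 255 FPKM, a difference of 1.12 that was 0.91 with the median ratio set to 0. CLH2 (AT5G43860) was at 21.8 and 19.99 FPKM and overlaps AT5G43870 on the opposite strand by 913 nt. PPH (AT5G13800), the pheophytinase gene that acts in ageing leaves, was at 75.4 and 106 FPKM, less than 2-fold apart.

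Among the members for ring opening and the changes made to its products, CYP89A9 alone passed 2-fold. PAO (AT3G44880), the oxygenase that opens the ring, was at 94.4 and 126 FPKM, and RCCR (AT4G37000), the reductase that follows it, at 124 and 107 FPKM. TIC55 (AT2G24820), which hydroxylates the colourless products, was at 121 and 139 FPKM, with a difference of 0.20 that was -0.01 with the median ratio set to 0. CYP89A9 (AT3G03470), a cytochrome P450 that removes a formyl group from them, was 3.81-fold higher at 54.3 and 207 FPKM. It ranked 30 among the 39 genes in wild type but 7 in the library labelled Atclb1-1.

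**Figure D3:**
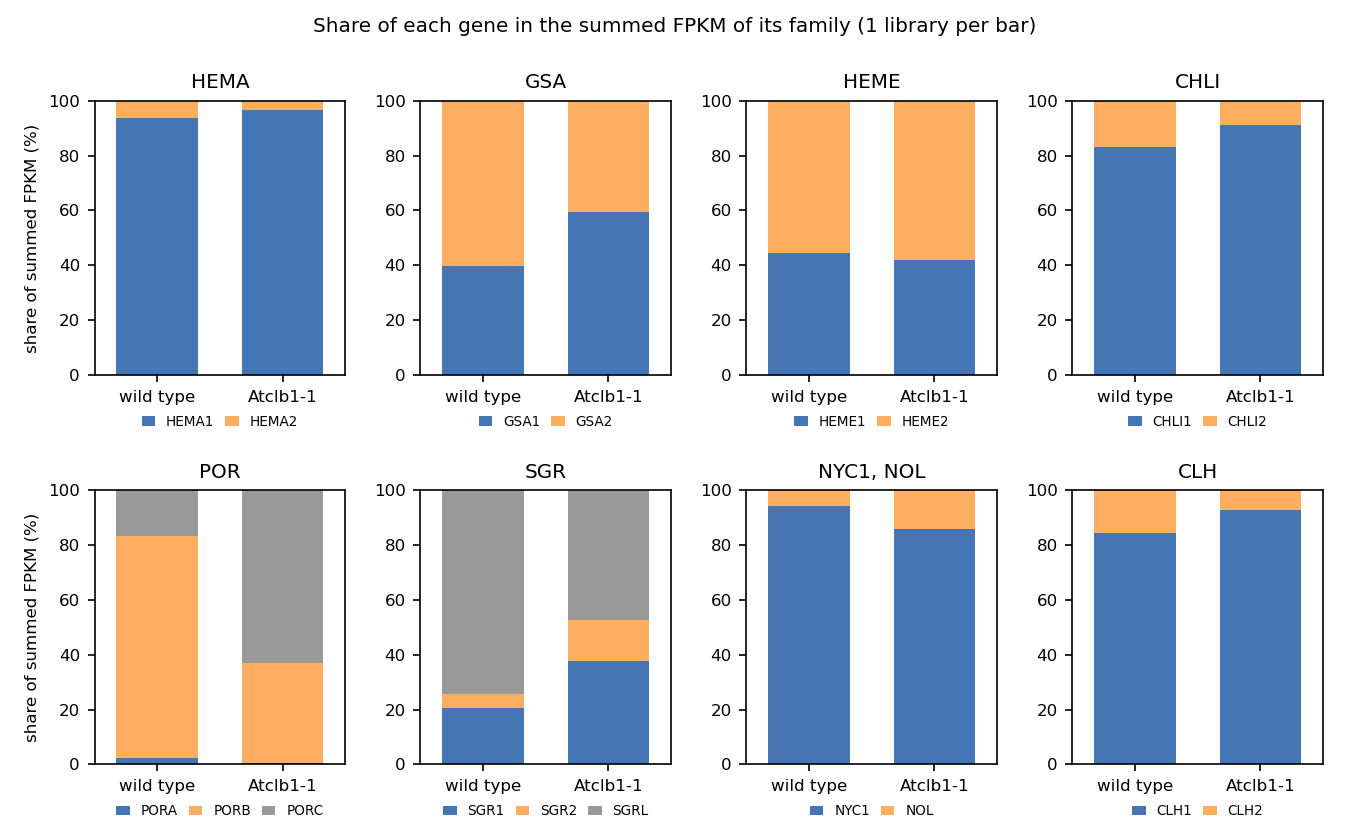
Share of each gene in the summed FPKM of its family, in percent, with 1 bar per library for 8 enzyme families. The leading form differs between the libraries in the POR family, from PORB to PORC, and in the GSA family, from GSA2 to GSA1, and SGR1 and SGR2 together take a larger share beside SGRL in the library labelled Atclb1-1.

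Side branches had smaller median differences than the synthesis members, at -0.38 for heme and bilin genes and -0.53 for siroheme genes. Of 7 heme and bilin genes 1 (14.3%) was higher by 2-fold or more and none was lower. Beside the 17.2% of all loci higher and 10.8% lower, nothing is read from counts among 7 genes. FC1, the ferrochelatase gene linked to stress and to non-green tissue, was at 34.7 and 77.4 FPKM, and FC2, the form of green tissue, at 103 and 68.0 FPKM. FC1 was 2.23-fold higher, and its share of the summed ferrochelatase level was 25.2% in wild type but 53.2% in the library labelled Atclb1-1. That call was lost, and 1 of the 7 genes was lower, with the median ratio set to 0 or the trend removed. The others farthest apart were HY2 at 15.1 and 8.06 FPKM, HO3 at 23.2 and 38.7 FPKM, and HO2 at 22.1 and 13.9 FPKM. The siroheme genes UPM1 (41.8 and 24.1 FPKM) and SIRB (40.2 and 32.7 FPKM) were less than 2-fold apart.

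Other isoforms and helper proteins of synthesis mostly shared the direction of the main branch, with a median of -0.67. Of 8 measured genes 3 (37.5%) were at least 2-fold lower and none higher, compared with 10.8% and 17.2% of all loci. YCF54, a cyclase assembly protein, was at 225 and 83.2 FPKM, in contrast to CRD1. LIL3.1, which anchors CHLP in the membrane, was at 229 and 94.9 FPKM. HEMF2, a second coproporphyrinogen oxidase gene, was at 8.67 and 2.16 FPKM. Among 4 further measured breakdown genes, MES16, an esterase that acts on the colourless products, was 3.67-fold higher at 18.2 and 66.8 FPKM, and the other 3 were less than 2-fold apart: CYP89A2 (82.1 and 140 FPKM), CYP89A5 (14.9 and 23.4 FPKM) and PTC52 (160 and 122 FPKM). CYP89A2 and CYP89A5 lie in a cluster of related genes, so their values are uncertain, and CYP89A7 was listed at 0 in both libraries.

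Regulators were mostly higher. Of 12 transcription factor genes known to act on synthesis, 7 (58.3%) were higher by 2-fold or more and none was lower. The shares over all loci were 17.2% higher and 10.8% lower. The median was 1.16, against 0.21 for all loci kept. The count fell to 6 with the median ratio set to 0. It fell to 5 with a pseudocount of 5 or with the length and GC trend removed. The activators among them included GLK2 at 49.2 and 135 FPKM, CGA1 at 2.07 and 14.8 FPKM, GNC at 12.9 and 28.2 FPKM and HY5 at 6.41 and 18.5 FPKM. PIF3 (4.90 and 13.1 FPKM) and PIF5 (48.9 and 126 FPKM), which act in the dark and in shade, were higher too. PIF4 went the other way at 64.9 and 43.7 FPKM, and PIF1 was at 6.42 and 8.99 FPKM, both under 2-fold. RVE1, a clock-related MYB factor known to activate PORA in dark-grown seedlings, was at 1.62 and 38.8 FPKM, the opposite direction to PORA in these leaves. GLK1, a close relative of GLK2, was at 156 and 222 FPKM.

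Of 10 measured factors known to act on breakdown, 6 (60%) were higher by 2-fold or more and none was lower, and the median was 1.05. By the same rule 17.2% of all loci were higher and 10.8% lower. NAP, a NAC factor of leaf ageing, was at 8.46 and 82.9 FPKM, and the abscisic acid factors ABF2, ABF3 and ABF4 were at 12.1 and 25.5 FPKM, 15.3 and 59.9 FPKM, and 14.0 and 34.8 FPKM. MYC2, the jasmonate factor, was at 106 and 328 FPKM, and NAC046 at 5.76 and 13.3 FPKM. ORE1, another NAC factor of leaf ageing, was at 12.5 and 13.1 FPKM. The count was 7 with a pseudocount of 0.1 but 4 with a pseudocount of 5 or with the median ratio set to 0. With the length and GC trend removed 3 of the 10 passed 2-fold.

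Proteins that bind chlorophyll were compared because they hold the end product of synthesis. Of 18 light-harvesting genes 11 (61.1%) were at least 2-fold lower and none higher, compared with 10.8% and 17.2% of all loci. Their median was -1.16, close to the -0.99 of synthesis and below the 0.21 of all loci kept. The spread differed, from -3.11 to 0.14 for light-harvesting genes and from -4.14 to 1.38 for synthesis genes. The lower genes were LHCA1, LHCA2, LHCB1.2, LHCB1.3, LHCB1.4, LHCB2.3, LHCB3, LHCB4.1, LHCB4.3, LHCB5 and LHCB6. LHCB1.4, the lowest, was at 2487 and 287 FPKM, and LHCB2.1, the exception above 0, at 1765 and 1951 FPKM. Reads of the LHCB1 copies could be divided among near-identical genes. The 9 reference genes had a median of -0.08, from -0.40 to 0.64, and none reached 2-fold.

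**Figure D4:**
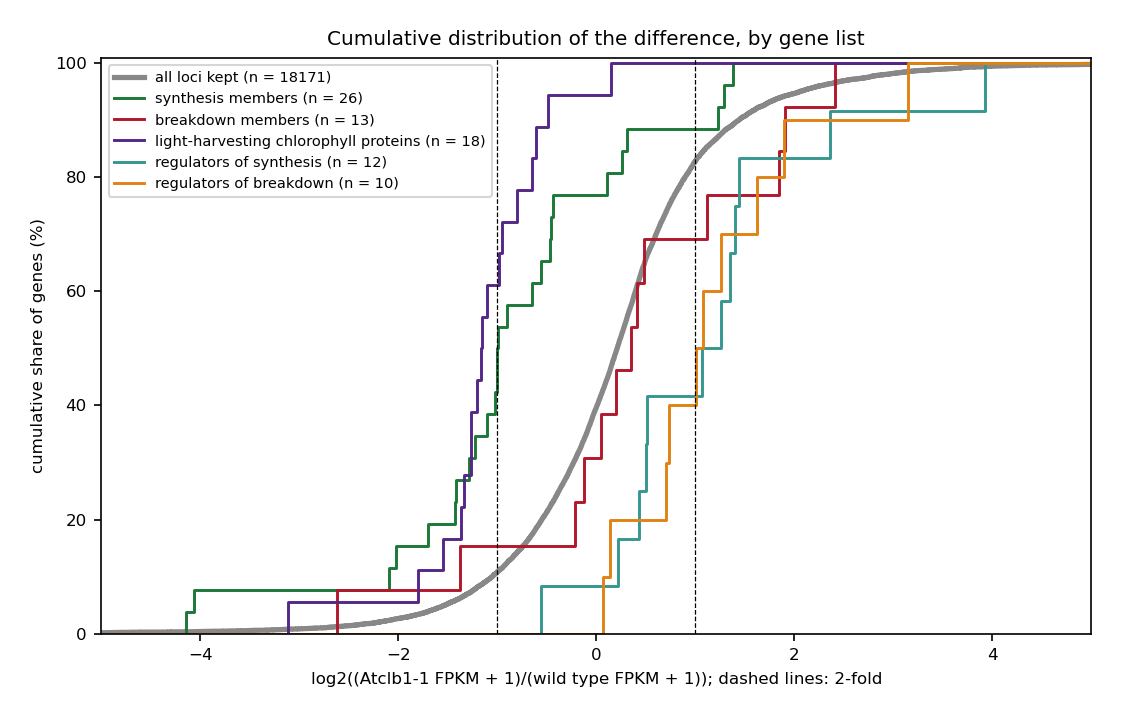
Cumulative share of genes, in percent, against the log2(FPKM + 1) difference for all 18171 loci kept and for 5 gene lists, with dashed lines at 2-fold. The synthesis curve lies left of the curve of all loci up to a difference of 1.38, and the curves of both regulator lists lie to the right of it over most of the range.

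The members past 2-fold were close to all loci in median transcript length. In median GC content the higher genes were close to all loci and the lower genes were above them. Removing a trend with length and GC content moved the median difference of the 39 genes from -0.47 to -0.74. It took HEMA1 out of the higher genes and added CHLD and HEMD to the lower genes. The median transcript was 1722 nt for the 7 higher genes, 1642 nt for the 14 lower genes and 1725 nt for all loci kept, and the median GC content was 41.4%, 43.0% and 41.3%. All 39 are nuclear genes, and each chromosome carried between 3 and 11 of them. Of the 9 members on chromosome 5, 4 were lower and none higher, and of the 11 on chromosome 1, 3 were lower and 3 higher. Shares of all loci by chromosome were not counted, so nothing is read from these counts. Across the 39 genes the level in wild type and the difference had a Pearson correlation of -0.30, which is a description over genes that share both libraries.

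Motifs before the gene start were counted in the 250 bases upstream of all 27443 annotated protein-coding nuclear genes with such a window. The evening element was in 3 of the 39 (7.69%), PORA, PORB and NYC1, all of them at least 2-fold lower, and in 2.36% of all windows. The G-box, bound by bZIP and bHLH factors such as HY5 and the PIFs, was in 5 (12.8%), namely SGR2, CAO, CRD1, NOL and HEMD, compared with 6.49% of all windows. None of these 5 was counted as lower, although HEMD lay at the threshold. Of the 39 members 14 were lower. Directions were not counted over all genes that hold either motif, so nothing is read from the directions of these few genes. The CCA1-binding site was in HEMA2, GUN4, CRD1 and FLU (10.3%, compared with 6.69%), and CCAATC in GSA2, GUN4, PORB and SGRL (10.3%, compared with 10.2%). In all, 26 of the 39 windows held none of the 4 motifs. In windows of 500 bases the evening element and the G-box were in the same genes, with shares of 7.69% and 12.8% against 4.44% and 9.35% of all windows. There the CCA1-binding site was in 15.4% of members against 12.5%, and CCAATC in 15.4% against 19.7%, below the share of all windows.

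The windows of NYC1, SGR2, CAO and GUN4 are shown because they hold a motif and belong to genes past 2-fold in each direction. They are chr4:7687007-7687256 (minus strand), chr4:7155900-7156149 (plus strand), chr1:16851272-16851521 (minus strand) and chr3:21949797-21950046 (minus strand), in the same layout as those of PORA and PORB. Capitals mark the evening element in NYC1, the G-box in SGR2 and CAO, and the CCA1-binding site and CCAATC in GUN4.
NYC1: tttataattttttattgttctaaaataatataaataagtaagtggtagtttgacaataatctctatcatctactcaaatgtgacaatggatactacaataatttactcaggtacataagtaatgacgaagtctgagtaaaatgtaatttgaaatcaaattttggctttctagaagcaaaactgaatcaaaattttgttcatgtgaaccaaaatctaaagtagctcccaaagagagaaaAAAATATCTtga
SGR2: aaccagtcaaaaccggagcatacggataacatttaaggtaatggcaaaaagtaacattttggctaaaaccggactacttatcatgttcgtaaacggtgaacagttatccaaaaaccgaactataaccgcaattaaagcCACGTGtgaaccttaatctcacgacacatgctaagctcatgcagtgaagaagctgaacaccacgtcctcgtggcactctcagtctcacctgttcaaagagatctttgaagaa
CAO: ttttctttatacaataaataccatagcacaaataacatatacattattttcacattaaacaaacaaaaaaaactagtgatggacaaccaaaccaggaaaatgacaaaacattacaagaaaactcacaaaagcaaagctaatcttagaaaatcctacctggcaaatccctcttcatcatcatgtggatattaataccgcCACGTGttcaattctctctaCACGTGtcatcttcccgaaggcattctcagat
GUN4: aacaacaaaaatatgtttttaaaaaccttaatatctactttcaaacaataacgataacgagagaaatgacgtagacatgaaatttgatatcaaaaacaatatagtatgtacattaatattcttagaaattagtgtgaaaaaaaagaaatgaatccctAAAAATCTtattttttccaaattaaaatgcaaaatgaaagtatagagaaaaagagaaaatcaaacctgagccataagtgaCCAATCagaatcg
CAO holds the G-box 2 times, ending 47 and 27 bases before the gene start, and the evening element of NYC1 ended 4 bases before it. No marked matches overlapped. A match of letters is a description of these windows and does not show binding.

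**Figure D5:**
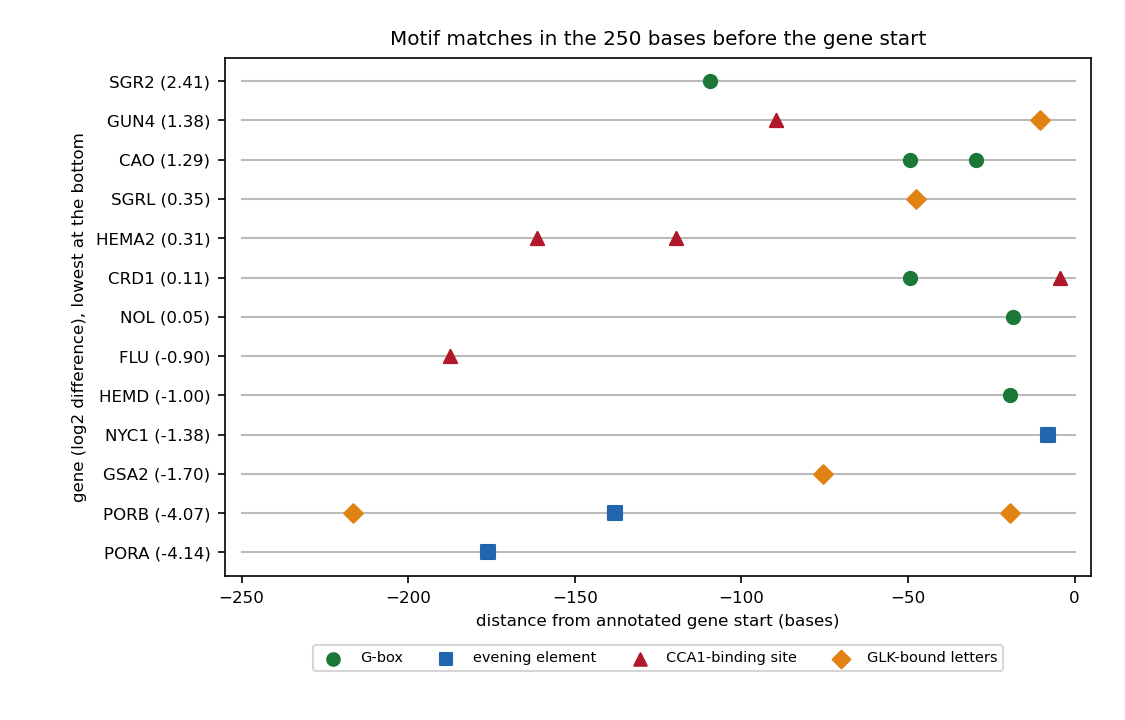
Position of motif matches, in bases from the annotated gene start, for the 13 genes with at least 1 match, ordered by their log2 difference, which stands beside each name. The evening element (blue squares) appears in PORA, PORB and NYC1 near the lower end, and the G-box (green circles) from HEMD upward.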

How the data were processed

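Values are FPKM as the authors deposited them, 1 column for each library, and the unit is named in the headers. TopHat 1.3.2 and Cuffdiff with the TAIR10 build were used, per the submitters' processing notes. Parameters, annotation release, filters and use of strand are not stated, so values of the 18 members that overlap another annotated gene (14 on the opposite strand) are uncertain. Libraries were built with a kit that marks strand, per the labels' protocols.

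Groups came from the genotype labels. Loci that reached 1 FPKM in either library were kept and compared as log2((mutant FPKM + 1)/(wild type FPKM + 1)), which understates differences of low genes. With 1 library per genotype there was no test and no p-value. The fold rule was tested on simulated data, made from wild type values multiplied by known factors without noise. That checks the arithmetic of the rule and not the calls made from 1 library per genotype. Depth was read from the most frequent ratio among 2434 low loci. A single fragment on a transcript of 1 kb was worth 0.065 to 0.07 FPKM in wild type and 0.055 to 0.06 FPKM in the library labelled Atclb1-1. Intervals for counting error are not given, because fragments per gene were only estimated and not counted. The range of fragments given for PORA comes from the range of that 1-fragment value and leaves out counting error.

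Names, lengths, coordinates and upstream windows came from TAIR10.1 of RefSeq, which matched 32810 of 33557 identifiers and all 39 members. Coding sequences were aligned with Biopython 1.88 in Python 3.11.15. Protein sequences were not used here. The members, lists and naming rule (all members; in other lists those past 2-fold, otherwise up to 4 with the largest difference) were chosen with earlier results of these data known. Genes named outside that rule, after their values were seen, were FC2, HY2, HO2, HO3, CYP89A2, CYP89A5, CYP89A7 and PTC52. Others named in that way were GLK1, PIF1, PIF4, ORE1, EEL, ABI5, LHCB2.1, markers under 2-fold and the overlapping genes.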

Additional observations from a re-analysis of the deposited data

How the results depend on the processing

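No paired analysis was possible because each genotype has 1 library. Alternatives were pseudocounts of 0.1 and 5, the median ratio set to 0, the same nuclear total, a filter at 5 FPKM or none, 4-fold as threshold, list means, and, added after the data were seen, removal of a length and GC trend, leaving out the POR genes and motif windows of 500 bases. A value was taken as moved when it changed by over 1.5 times or changed sign. The synthesis median ran from -1.19 to -0.90 and the breakdown median from 0.15 to 0.45. Synthesis genes counted as lower ran from 10 with the same nuclear total to 15 with the median ratio set to 0. Without the POR genes the synthesis median was -0.90.

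A 4-fold threshold left 1 higher (SGR2) and 5 lower members (PORA, PORB, HCAR, DVR and CHLI2), 0 higher and 4 lower for synthesis, and 1 and 1 for breakdown. It left 5.29% of loci higher and 2.64% lower, 2 higher regulators of synthesis, 1 higher regulator of breakdown, 1 lower light-harvesting gene, 0 lower assembly factors, 0 higher heme genes and 0 higher further breakdown genes. With a pseudocount of 5, 9.76% of loci were higher and 5.82% lower, and with no filter 9.31% and 5.83%. Setting the median ratio to 0 or removing the trend left 0 higher and 1 lower heme and bilin genes, and trend removal left 1 lower siroheme gene and 3 higher regulators of breakdown. The reference median was 0.016 with the same nuclear total and 0.0244 as a mean, and the clock markers had a mean of -1.41. Protein identities were not run and coding sequences took their place. No single library could be left out.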

Other observations

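Ratios between members within a library do not depend on scaling and showed which genes differed by unequal amounts. CHLH was 5.33 times as abundant as CHLD in wild type and 12.8 times in the library labelled Atclb1-1, and CHLI1 4.91 and 10.4 times as abundant as CHLI2. GUN4 stood at 0.345 times the level of CHLI1 in wild type and 1.81 times in the library labelled Atclb1-1. NYC1 was 6.58 and 17.3 times as abundant as HCAR, although both were lower. The HEME pair kept nearly the same proportions, with HEME1 at 44.4% and 42.1% of their sum. Among genes that overlap members, AT4G37010 lies on the same strand as RCCR over 167 nt and was at 0.365 and 15.7 FPKM, and AT4G01700 lies opposite PPOX1 over 121 nt and was at 25.0 and 110 FPKM.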
